A study of Mus musculus with 2 samples.

Results

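U3, U8 and U17 are small nucleolar RNAs (snoRNAs) that take part in the cleavage of the ribosomal RNA precursor, and they were described here as 7 transcripts out of 48876 listed for each library. The transcripts were chosen by their gene symbol after the counts of the libraries were joined on the Ensembl transcript ID. U3 was represented by Rnu3b3, Rnu3a, Gm23927 and Gm25203, U8 by Snord118, and U17 by Snora73b and Snora73a. All 7 had reads in both libraries.

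The libraries hold RNA isolated by enChIP, in which a tagged DNA-binding protein is immunoprecipitated with the chromatin it is crosslinked to. The cells were Ba/F3, a hematopoietic line from the mouse (strain label C3H). Cells expressing 3xFN-Tel-TAL carried a TAL protein that recognizes telomere repeats, fused to a 3xFLAG tag and a nuclear localization signal (NLS), and cells expressing 3xFNLDD carried a LexA protein with the same tag as the negative control. In both, chromatin was crosslinked with formaldehyde, sonicated and pulled down with the anti-FLAG M2 antibody, and there was 1 library for each protein. The question was which RNAs were more abundant in the isolate of the telomere-binding protein than in that of LexA.

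The 3xFNLDD library had 7206183 reads and the 3xFN-Tel-TAL library 9774844. Values are given as reads and as RPM, the reads scaled to the library's total, and a ratio is always the 3xFN-Tel-TAL value over the 3xFNLDD value. The 95% intervals are exact Clopper-Pearson intervals, which cover the counting error of reads only and not variation between preparations. PCR copies of a molecule were not marked as such, so the intervals may be too narrow even for counting error. With 1 library per protein, no difference has a replicate check, no test between conditions was possible and no p-value is given. The isolates were not set against RNA from the cells before immunoprecipitation, so more RNA on the isolated chromatin and more of the RNA in the cells cannot be told apart. Of 10 hematopoietic marker genes, 9 were listed under the symbols searched. Their summed RPM was 209 with 3xFNLDD and 230 with 3xFN-Tel-TAL, against 18.6 and 16.7 for 8 listed markers of other cell types. The tenth, Spi1, was listed under its older symbol Sfpi1, with a transcript of 18 and 5 reads that is not in the sums. Most hematopoietic marker reads came from Csf2rb, the shared beta chain of the IL-3 receptor (583 and 1052 reads), and Csf2rb2 (751 and 849 reads). The B lineage markers Igll1 (2 and 0 reads), Cd79b (4 and 2) and Vpreb1 (4 and 4) had few. Hbb-b1, a globin gene, had 49 and 73 reads and was the deepest of the markers of other cell types.

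SnoRNAs work as RNA-protein particles in the nucleolus. Box C/D snoRNAs such as U3 and U8 carry short C and D boxes that bind the core proteins Nop56, Nop58, Snu13 and fibrillarin, and box H/ACA snoRNAs such as U17 fold into hairpins and are bound by dyskerin, Nhp2, Nop10 and Gar1. Most snoRNAs guide the chemical modification of ribosomal RNA, but U3, U8 and U17 are known instead for pre-rRNA cleavage: U3 pairs with the precursor through its 5′ region in the small subunit processome, U17 acts in the maturation of the small subunit rRNA, and U8 acts in that of the large subunit rRNAs. U3 and U8 genes are transcribed as independent units and their RNAs receive a cap, while U17 is cut out of introns.

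The sequences of the transcripts that carried nearly all reads, and of the U3 copy whose ratio stood lowest, are given first. They were read from the NCBIM37 genome at the positions of the GENCODE M1 annotation. Rnu3b3 (ENSMUST00000093738, chr11:87256739-87256952, plus strand) lies in an intron of Tex14. Rnu3a (ENSMUST00000083936, chr10:39978273-39978484, plus strand) lies outside annotated genes. Gm25203 (ENSMUST00000082842, chr12:103491684-103491897, minus strand) lies in an intron of Slc24a4 on the opposite strand. The fourth copy, Gm23927 (ENSMUST00000082466, chr19:4078299-4078512, minus strand), also lies outside annotated genes and is not printed. Capitals mark the box C match TGATGA and the last match to the box D letters CTGA, which ended 4 bases from the 3′ end in all 4 U3 transcripts.
Rnu3b3: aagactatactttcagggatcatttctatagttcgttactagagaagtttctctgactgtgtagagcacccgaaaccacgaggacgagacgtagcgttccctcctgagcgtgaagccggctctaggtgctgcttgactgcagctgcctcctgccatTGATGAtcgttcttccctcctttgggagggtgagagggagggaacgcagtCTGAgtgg
Rnu3a: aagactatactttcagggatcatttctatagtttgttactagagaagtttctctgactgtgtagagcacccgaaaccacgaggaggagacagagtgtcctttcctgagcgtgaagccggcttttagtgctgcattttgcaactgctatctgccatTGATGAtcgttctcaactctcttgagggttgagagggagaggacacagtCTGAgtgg
Gm25203: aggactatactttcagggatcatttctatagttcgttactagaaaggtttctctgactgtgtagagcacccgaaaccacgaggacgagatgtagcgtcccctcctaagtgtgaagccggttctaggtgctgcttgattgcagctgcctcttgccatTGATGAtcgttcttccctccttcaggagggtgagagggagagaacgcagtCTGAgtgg

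Rnu3b3 and Rnu3a were 86.8% identical over their aligned bases, with the first 33 bases shared. Only 1 of their differences fell in the first 80 bases and 29 fell after them, so the 5′ region known to pair with the pre-rRNA was nearly the same in both. Gm23927 was 96.3% and Gm25203 93.9% identical to Rnu3b3. The annotation holds 4 copies identical to Rnu3b3 within 28345 bases of chromosome 11, of which Rnu3b3 is the listed one and the other 3 were not analysed here as separate entries. Windows of 50 bases were searched in the genome by exact match. None of the 165 in Rnu3b3 was found at a single place, whereas 99.4% of those in Rnu3a, 98.8% of those in Gm25203 and 73.9% of those in Gm23927 were. How reads that match several places were counted is not given in the sources used here, so the Rnu3b3 value may stand for all 4 identical copies and the values of the U3 transcripts may share reads.

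The U8 transcript Snord118 (ENSMUST00000082965, chr11:68886929-68887063, plus strand) starts 133 bases beyond the annotated end of Tmem107 and overlaps no exon. Capitals mark TGATGA and the last CTGA, which ended 1 base from the 3′ end.
Snord118: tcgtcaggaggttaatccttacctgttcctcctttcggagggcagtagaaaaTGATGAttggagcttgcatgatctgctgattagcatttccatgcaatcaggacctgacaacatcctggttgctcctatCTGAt
The U17 transcripts Snora73b (ENSMUST00000083419, chr4:131908237-131908441, minus strand) and Snora73a (ENSMUST00000082453, chr4:131908690-131908894, minus strand) lie next to each other within the non-coding host gene Snhg3. An annotated Rcc1 transcript on the same strand, not analysed here, also spans both without an exon over them. They are printed with Gm26448 (ENSMUST00000082446, chr9:120038469-120038671, plus strand), which the annotation names SNORA73 and places in an intron of Rpsa, a ribosomal protein gene. Gm26448 was not chosen by its symbol as a U17 member, and it is described here because of its values, after they were seen. Capitals mark the U17 motifs ATATTCCTA and AAACCAT and the ACA box, which ended 3 bases from the 3′ end in each.
Snora73b: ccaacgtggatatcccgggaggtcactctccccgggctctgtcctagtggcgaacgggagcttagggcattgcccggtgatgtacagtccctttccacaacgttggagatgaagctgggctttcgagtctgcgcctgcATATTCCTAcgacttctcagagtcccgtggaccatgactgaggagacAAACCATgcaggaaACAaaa
Snora73a: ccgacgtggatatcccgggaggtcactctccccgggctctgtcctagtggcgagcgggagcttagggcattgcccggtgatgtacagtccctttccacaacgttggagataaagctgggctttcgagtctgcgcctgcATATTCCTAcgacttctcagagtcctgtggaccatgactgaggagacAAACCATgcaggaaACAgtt
Gm26448: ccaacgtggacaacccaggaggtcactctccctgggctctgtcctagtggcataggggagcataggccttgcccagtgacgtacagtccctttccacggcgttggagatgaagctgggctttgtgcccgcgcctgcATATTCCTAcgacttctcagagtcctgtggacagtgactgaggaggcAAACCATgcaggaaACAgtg

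The 2 Snhg3 copies were 96.6% identical with 7 mismatches, and Gm26448 was 88.7% identical to each of them. Among the 357 other listed snoRNA transcripts, searched on the transcript strand, TGATGA was present in 19.3%, CTGA anywhere in 68.1% and both in 18.8%, so these short C/D letters are common. ATATTCCTA was present in 0.56% and AAACCAT in 1.68% of the 357. The only transcripts among them with both U17 motifs were Gm26448 and Gm22053, another transcript annotated as SNORA73, which had 2 reads with 3xFNLDD and 3 with 3xFN-Tel-TAL. The marked matches do not overlap each other. A match describes the letters only and is not a measured binding site.

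Scaled to library totals, all 3 snoRNA species were more abundant in the 3xFN-Tel-TAL library, U3 by about 4-fold and U8 and U17 by about 2-fold. The ratio of RPM was above 1.4 for 6 of the 7 transcripts and above 1 for all 7. The study's methods set the same threshold on read counts, and by the ratio of raw reads, which is not corrected for the deeper 3xFN-Tel-TAL library, all 7 passed 1.4, as did 70.1% of the transcripts with 20 or more reads. Of the 16468 transcripts with 20 or more reads over both libraries, 44.2% were above 1.4 by RPM, so a ratio past that value was common. With TMM scaling, a trimmed mean that sets the bulk of transcripts equal and lowers every ratio here, the count was still 6 of the 7, against 24.6% of the 16468. For 6 of the 7, the interval's lower bound exceeded 1.4, against 9.9% of the 16468. That bound depends on read number, and only 2473 of the 16468 had 200 or more reads, so these shares are not at like depth. With other scalings of the libraries the lower bound remained above 1.4 for Rnu3b3, Rnu3a and Snora73b only. Under each scaling the lower bound of the same 6 transcripts stayed above a ratio of 1.

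**Figure D1:**
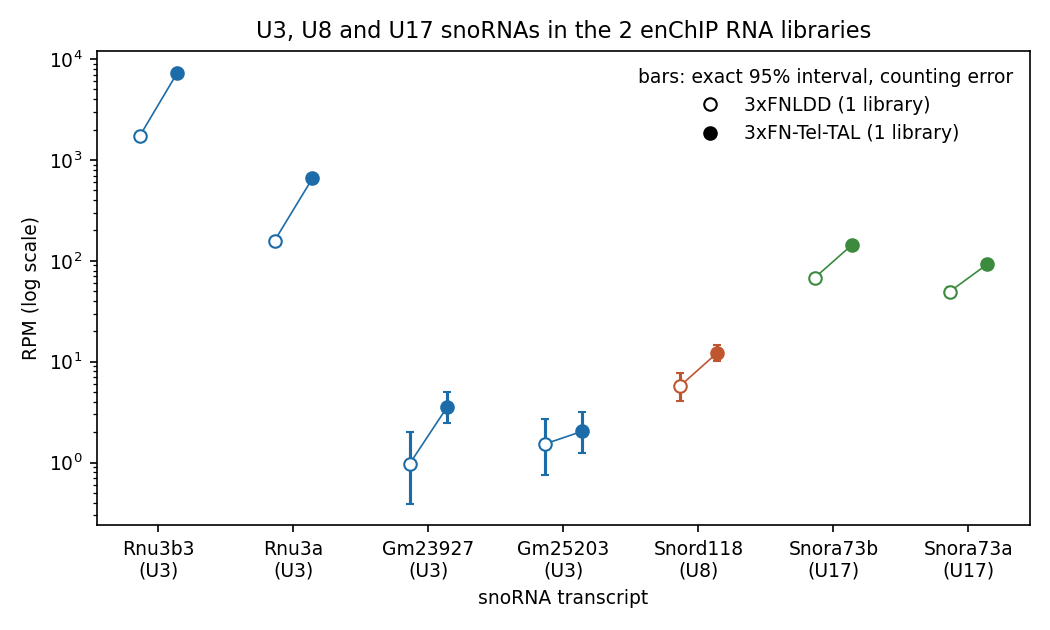
RPM of each snoRNA transcript (log scale) in the 3xFNLDD library (open circles) and the 3xFN-Tel-TAL library (filled circles), with bars for the exact 95% interval of counting error. Rnu3b3 went from 1716.4 to 7322.7 RPM, and only for Gm25203, at 1.526 and 2.046 RPM, do the bars largely overlap.

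U3 had the most reads of the 3 species, also per base of RNA. Summed over its 4 transcripts, it had 13529 reads (1877.4 RPM) with 3xFNLDD and 78033 reads (7983.0 RPM) with 3xFN-Tel-TAL, for a log2 ratio of 2.09 (95% interval 2.06 to 2.11). This is a ratio of 4.25, and U3 took 0.188% of all reads with 3xFNLDD and 0.798% with 3xFN-Tel-TAL. Rnu3b3 supplied 91.4% of the U3 reads with 3xFNLDD and 91.7% with 3xFN-Tel-TAL.

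Rnu3b3 had 12369 reads (1716.4 RPM) with 3xFNLDD and 71578 reads (7322.7 RPM) with 3xFN-Tel-TAL, for a log2 ratio of 2.09 (95% interval 2.07 to 2.12). By read number it ranked 18 among all transcripts with 3xFNLDD and 13 with 3xFN-Tel-TAL. Rnu3a had 1142 reads (158.5 RPM) with 3xFNLDD and 6400 reads (654.7 RPM) with 3xFN-Tel-TAL, for a log2 ratio of 2.05 (95% interval 1.96 to 2.14), and moved from rank 54 to rank 26. Tex14, whose intron holds Rnu3b3, had 2 and 1 reads in 2 of its transcripts with 3xFNLDD and 0 with 3xFN-Tel-TAL. The log2 ratios of Rnu3b3 and Rnu3a differed by 0.05 (95% interval -0.05 to 0.14), which counting error alone covers. By exact match, nearly all 50-base windows of Rnu3a occur at a single place. Only 1 of its differences from Rnu3b3 lies in the first 80 bases, so reads from there may be shared if mismatches were allowed.

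The other U3 copies had few reads. Gm23927 had 7 reads (0.971 RPM) with 3xFNLDD and 35 reads (3.58 RPM) with 3xFN-Tel-TAL, for a log2 ratio of 1.88 with a wide interval of 0.69 to 3.30. Gm25203 had 11 reads (1.53 RPM) and 20 reads (2.05 RPM), for a log2 ratio of 0.42 (95% interval -0.71 to 1.63), so a difference between the libraries was not detectable for it at this depth. The log2 ratio of Rnu3b3 was higher than that of Gm25203 by 1.67 (95% interval 0.46 to 2.80) and higher than that of Gm23927 by 0.21 (95% interval -1.21 to 1.403). A further 7 listed transcripts that the annotation names U3 had 16 reads together with 3xFNLDD and 35 with 3xFN-Tel-TAL, with no more than 14 in any library. Without Rnu3b3 and Rnu3a, the log2 ratio of U3 rested on 18 and 55 reads and was 1.17 (95% interval 0.38 to 2.03).

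U8 was the species with the fewest reads. Snord118 had 41 reads (5.69 RPM, 95% interval 4.08 to 7.72) with 3xFNLDD and 120 reads (12.3 RPM, 95% interval 10.2 to 14.7) with 3xFN-Tel-TAL. The intervals of the RPM values did not overlap, and the log2 ratio was 1.11 (95% interval 0.59 to 1.66), a ratio of 2.16. In Snord118, 82.6% of the 50-base windows were found at a single place. Its listed relatives by annotated name, Gm24208, Gm23182 and Gm24439, had 3 reads together with 3xFNLDD and 2 with 3xFN-Tel-TAL. The neighbouring gene Tmem107 had 0 and 4 reads.

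U17 lay between U3 and U8 in reads. Summed over its pair of transcripts, it had 844 reads (117.1 RPM) with 3xFNLDD and 2323 reads (237.7 RPM) with 3xFN-Tel-TAL, for a log2 ratio of 1.02 (95% interval 0.91 to 1.14) and a ratio of 2.03. Snora73b had 488 reads (67.7 RPM) and 1417 reads (145.0 RPM), for a log2 ratio of 1.10 (95% interval 0.95 to 1.25), and moved from rank 129 to rank 65 by read number. Snora73a had 356 reads (49.4 RPM) and 906 reads (92.7 RPM), for a log2 ratio of 0.91 (95% interval 0.73 to 1.09), and moved from rank 210 to rank 101. Their log2 ratios differed by 0.19 (95% interval -0.05 to 0.43). In each of them 92.9% of the 50-base windows were found at a single place.

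**Figure D2:**
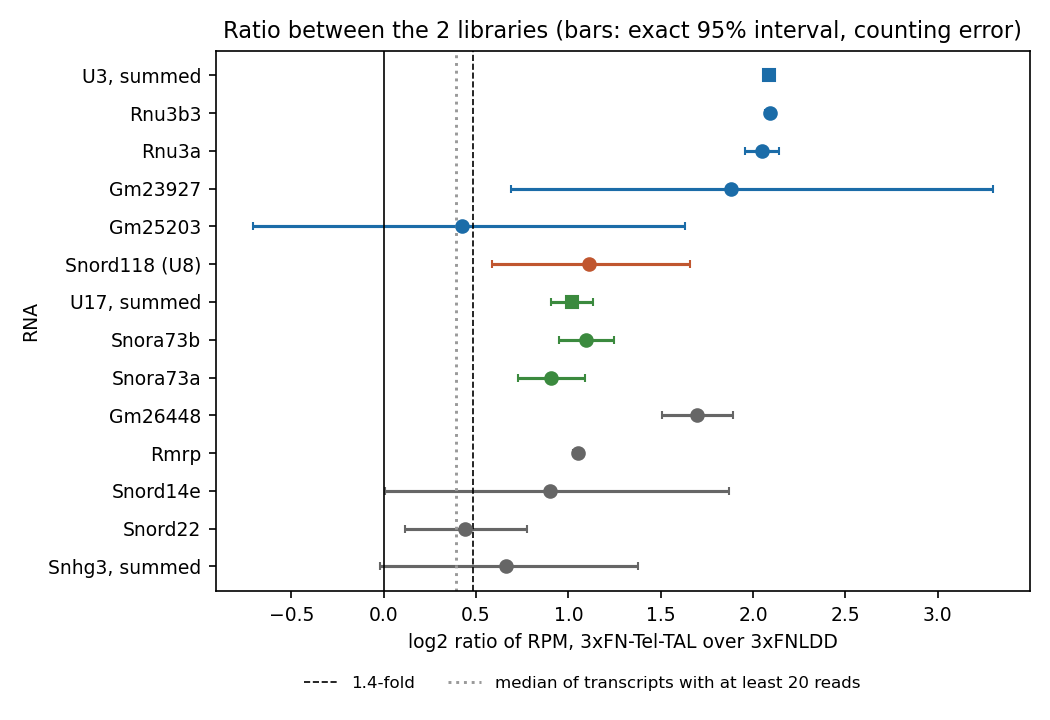
Log2 ratio of RPM, 3xFN-Tel-TAL over 3xFNLDD, for each snoRNA transcript (circles), for the U3 and U17 sums (squares) and for the comparison RNAs (grey), with bars for the exact 95% interval of counting error, a dashed line at a ratio of 1.4 and a dotted line at the median of 0.39 over transcripts with at least 20 reads. The U3 sum, Rnu3b3 and Rnu3a lie near 2.1, U8 and U17 near 1.1 and 1.0, and Gm26448 between them at 1.70.

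The U17 relative in the Rpsa intron had a higher ratio than the pair in Snhg3. Gm26448 had 271 reads (37.6 RPM) with 3xFNLDD and 1192 reads (121.9 RPM) with 3xFN-Tel-TAL, for a log2 ratio of 1.70 (95% interval 1.51 to 1.89). It exceeded the log2 ratio of Snora73b by 0.60 (95% interval 0.35 to 0.85) and that of Snora73a by 0.79 (95% interval 0.52 to 1.06). At nearly the same length, it had fewer reads than Snora73a with 3xFNLDD and more with 3xFN-Tel-TAL. All of its 50-base windows were found at a single place. With Gm26448 added, the log2 ratio of U17 was 1.22 (95% interval 1.12 to 1.32). Gm26448 shares no exonic base with Rpsa, whose transcript had 457 reads with 3xFNLDD and 781 with 3xFN-Tel-TAL, for a log2 ratio of 0.33 that was lower than that of Gm26448 by 1.36 (95% interval 1.11 to 1.62). The other 3 listed transcripts annotated as SNORA73 had 8 reads together in each library.

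The host of the Snora73 pair had few reads of its own. The 4 Snhg3 transcripts with reads had 27 reads together with 3xFNLDD and 58 with 3xFN-Tel-TAL, for a log2 ratio of 0.66 (95% interval -0.02 to 1.38). The U17 log2 ratio was higher than this by 0.36 (95% interval -0.37 to 1.05), a difference that was not detectable at this depth. One exon of the deepest Snhg3 transcript, with 14 and 40 reads, shares 159 of the 205 bases of Snora73a, so its reads cannot be told apart from those of the snoRNA. Against this transcript alone the difference turned to -0.05, and against the transcripts without that overlap, with 13 and 18 reads, it was 0.99 (95% interval -0.17 to 2.11). The annotation also places Gm17300, a long non-coding RNA, on the opposite strand, with exons that cover all 205 bases of Snora73b and 175 of Snora73a. Gm17300 had 843 reads with 3xFNLDD and 2245 with 3xFN-Tel-TAL beside 844 and 2323 for U17, and its log2 ratio was 0.97, within 0.05 of that of U17 (95% interval -0.12 to 0.21 for the difference). Rcc1, a chromatin-bound exchange factor for Ran, was listed with transcripts that do not reach the snoRNAs, and the deepest had 50 and 98 reads and a log2 ratio of 0.53 (95% interval 0.03 to 1.05). The library kit is not stated to keep the strand, so reads of U17 and of Gm17300 could not be told apart. The interval of their difference takes the reads as separate, so it does not measure counting error where reads are shared.

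Per base of RNA, the order U3, U17, U8 held in both libraries. How well each RNA enters a library was not measured, so these are levels of reads and not of molecules. U3 had 8773 RPM per kilobase with 3xFNLDD and 37304 with 3xFN-Tel-TAL, U17 had 571.3 and 1159, and U8 had 42.1 and 90.9, where each sum was divided by the length of its deepest transcript. The level of U3 was 15.4 times that of U17 with 3xFNLDD and 32.2 times with 3xFN-Tel-TAL. The log2 ratio of U3 was higher than that of U17 by 1.07 (95% interval 0.95 to 1.18), and higher than that of U8 by 0.98 (95% interval 0.43 to 1.502). These differences do not depend on how the libraries are scaled. The level of U17 was 13.6 times that of U8 with 3xFNLDD and 12.7 times with 3xFN-Tel-TAL, and their log2 ratios differed by 0.09 (95% interval -0.45 to 0.65), which leaves room for either to be the higher. With Gm26448 counted as U17, the log2 ratio of U3 was higher than that of U17 by 0.87 (95% interval 0.77 to 0.97).

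**Figure D3:**
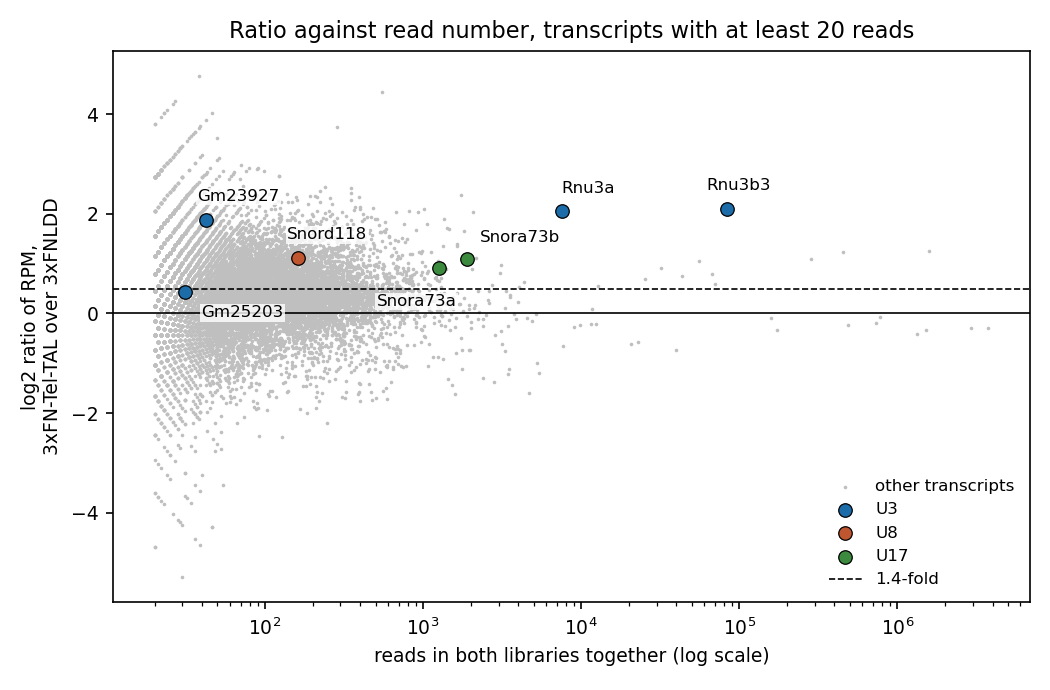
Log2 ratio of RPM against the reads of both libraries together (log scale) for transcripts with at least 20 reads, with the U3, U8 and U17 transcripts in color, other transcripts in grey and a dashed line at a ratio of 1.4. The 31 transcripts without reads in one of the libraries have no ratio and are not drawn, and Rnu3b3 and Rnu3a stand above nearly all transcripts of like read number, while Snord118 and Gm25203 lie within the cloud.

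Among deeply read transcripts, U3 stood near the top. Of the 185 transcripts with 1000 or more reads over both libraries, 28.1% were above 1.4 and 2.7% above 4, and Rnu3b3 and Rnu3a held ranks 3 and 4 by ratio. The median log2 ratio of the 185 was 0.18. Only 2 of the 181 of them outside the 7 chosen transcripts were above U3, of which the higher was the C/D snoRNA Snord17 with 215 and 1512 reads and a log2 ratio of 2.37. The U3 log2 ratio was lower than that of Snord17 by 0.29 (95% interval 0.08 to 0.50). U17 was exceeded by 19 of the 181, among them its relative Gm26448, and Snora73b and Snora73a held ranks 19 and 26 of the 185. Of the transcripts with at least 200 reads, 39.6% were above 1.4, and of the 2469 outside the 7 chosen transcripts 19 were above U3, 267 above U8 and 304 above U17, with Gm26448 counted in the last 2 of these numbers.

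The RNAs nearest in ratio were of several kinds. For U3 they were Gtpbp1 (54 and 310 reads), Eif4h (148 and 859 reads) and Gm25395 (58 and 338 reads), whose log2 ratios of 2.08, 2.10 and 2.10 were chosen as the nearest among transcripts with at least 200 reads. For U8 they were Mapk1ip1l, Cbx5 and Cmtm7, at 1.10, 1.10 and 1.12. For U17 they were Gata2, Tacc1 and Myh9, each at 1.02. The likeness rests on a single ratio between 2 libraries and carries no more than that value.

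Other RNAs of pre-rRNA cleavage did not share a single ratio. Rmrp, the RNA of RNase MRP, which cleaves the precursor between the rRNAs, had 14692 reads (2038.8 RPM) with 3xFNLDD and 41257 reads (4220.7 RPM) with 3xFN-Tel-TAL, for a log2 ratio of 1.05 (95% interval 1.02 to 1.08). Its ratio was thus near those of U8 and U17. The log2 ratio of U3 exceeded that of Rmrp by 1.04 (95% interval 1.0 to 1.08), whereas that of U17 was lower by 0.03 (95% interval -0.15 to 0.09 for U17 minus Rmrp). Snord22, a box C/D snoRNA, had 120 reads (16.7 RPM) and 221 reads (22.6 RPM), for a log2 ratio of 0.44 (95% interval 0.11 to 0.77), below U3 by 1.65 (95% interval 1.31 to 1.98), U17 by 0.58 (95% interval 0.23 to 0.93) and U8 by 0.67 (95% interval 0.04 to 1.31). Of the U14 transcripts, Snord14e had 15 and 38 reads, for a log2 ratio of 0.90 (95% interval 0.005 to 1.87), and Snord14c and Snord14d had at most 2 reads in a library. Snord13 had 4 and 6 reads, too few for a direction.

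Other snoRNA classes, taken by symbol and with 20 or more reads over both libraries, were also mostly higher with 3xFN-Tel-TAL, and their values spread widely. Of 33 listed H/ACA snoRNAs (Snora) other than the U17 pair, 12 reached 20 reads, of which 8 were above 1.4 and 2 below 1/1.4, with a median log2 ratio of 0.78. They ran from Snora33 (20 and 18 reads, -0.59) to Snora23 (71 and 244 reads, 1.34), so that no H/ACA snoRNA of this class reached the ratio of U3. SnoRNAs listed under other symbols are not in these classes. Among those left out is the U17 relative Gm26448, whose log2 ratio of 1.70 was above that of Snora23. Of 40 C/D snoRNAs (Snord) other than U8, 6 reached 20 reads and 5 were above 1.4, with a median of 1.88 between Snord22 at the low end and Snord55 (2 and 23 reads, 3.08) at the high end. In this class, which is that of U3 itself, Snord55, Snord17 and Snord15a (26 and 162 reads, 2.200) were above U3. Snord15b, Snord14e and Snord22 were below it. The counting intervals of Snord55 and Snord15a held the U3 value, and that of Snord17 did not. All 4 scaRNAs with 20 reads, out of 9 listed, were above 1.4, with a median of 1.28. They ran from Scarna2 (355 and 724 reads, 0.59) to Scarna6 (40 and 312 reads, 2.52). Of these scaRNAs only Scarna6 was above U3, and its counting interval (2.05 to 3.04) held the U3 value. The median over all 16468 transcripts was 0.39, and 44.2% of these were above 1.4 and 11.1% below 1/1.4. With TMM scaling 12 of the 22 snoRNAs of these classes were above 1.4, in place of 17, and 3 were below 1/1.4. Of all transcripts 24.6% were then above and 22.6% below.

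**Figure D4:**
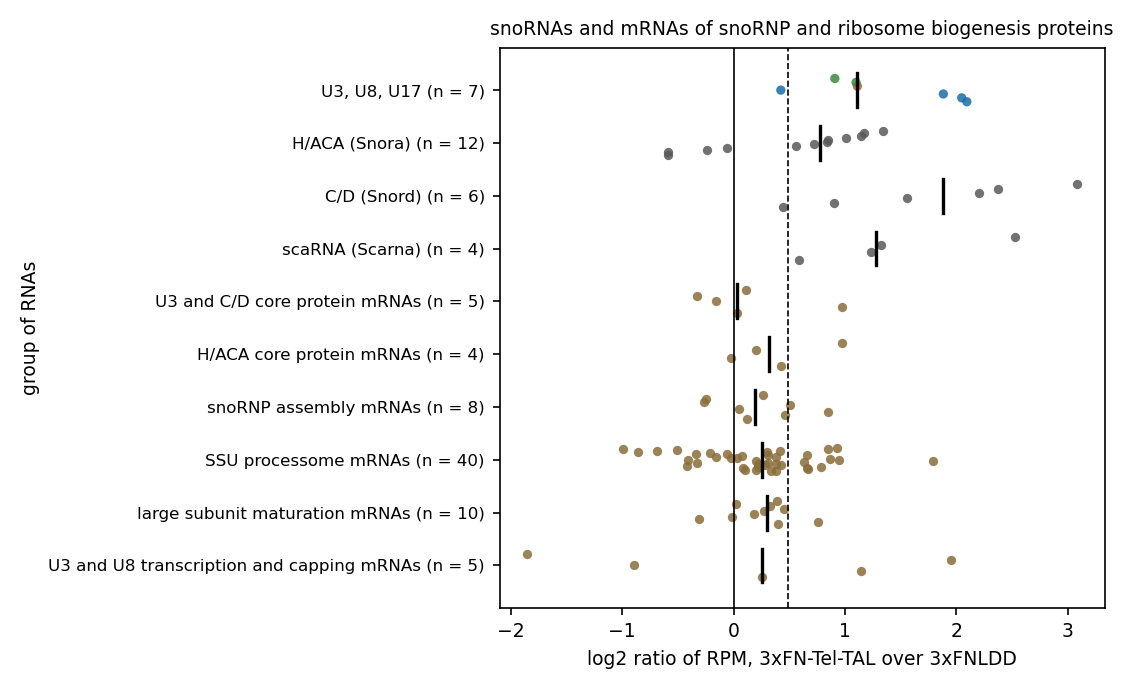
Log2 ratio of RPM, 3xFN-Tel-TAL over 3xFNLDD, for the U3, U8 and U17 transcripts, other snoRNA classes and the mRNAs of snoRNA-protein and ribosome biogenesis proteins, 1 point per RNA with at least 20 reads, with a bar at the median of each group and a dashed line at a ratio of 1.4. The medians of the mRNA groups lie between 0.03 and 0.31, below those of the snoRNA groups.

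The mRNAs of the proteins that work with these snoRNAs had a median ratio closer to 1 than those of the snoRNAs, although single mRNAs lay as far from 1. Of 78 gene symbols in 6 lists, 77 were listed and 72 had at least 20 reads in their deepest transcript, of which 17 (against 44.2% of all transcripts) were above 1.4 and 6 below 1/1.4, with a median log2 ratio of 0.24. With TMM scaling 8 were above and 17 below, where 24.6% of all transcripts were above and 22.6% below. In the list of U3 and C/D core proteins 1 of 5 was above 1.4, with a median of 0.03, and Nop56, a core protein of C/D particles, had 86 and 119 reads and a log2 ratio of 0.03. In the H/ACA core list 1 of 4 was above 1.4, with a median of 0.31, and Dkc1, which encodes the pseudouridine synthase dyskerin, had 98 and 178 reads and a log2 ratio of 0.42.

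In the larger lists the values went both ways. Among mRNAs of the small subunit processome, the particle built around U3, 10 of 40 were above 1.4 and 4 below 1/1.4, with a median of 0.25, and the deepest, Utp14a, had 221 and 377 reads and a log2 ratio of 0.33. Of 8 snoRNA particle assembly factors 2 were above 1.4, with a median of 0.19, and Naf1, an assembly factor of H/ACA particles, had 64 and 94 reads and a log2 ratio of 0.11. Of 10 factors of large subunit maturation 1 was above 1.4, with a median of 0.30, and Nol9 had 115 and 206 reads and a log2 ratio of 0.40. Of 5 factors of U3 and U8 transcription and capping 2 were above 1.4 and 2 below 1/1.4, with a median of 0.25, which was the value of Snapc4 (65 and 105 reads), a subunit of the complex that activates snRNA gene promoters.

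Of the 30 listed mRNAs with at least 100 reads, the 3 highest log2 ratios were those of Tgs1, Nop58 and Nufip1. Tgs1, the enzyme that hypermethylates the cap of snRNAs and U3, had 30 and 90 reads, for a log2 ratio of 1.15 (95% interval 0.53 to 1.79). Nop58, a core protein of C/D particles, had 33 and 88 reads, and its log2 ratio was 0.98 (95% interval 0.38 to 1.599). Nufip1, a C/D particle assembly factor, had 30 and 73 reads and a log2 ratio of 0.84 (95% interval 0.21 to 1.51). The 3 lowest were the ribosome biogenesis factors Utp20 (70 and 71 reads, -0.42), Rrp12 (51 and 55 reads, -0.33) and Ebna1bp2 (85 and 93 reads, -0.31), and the interval of each of these held 0. With fewer reads, the widest values of all lists were those of the snRNA gene activator subunit Snapc2 (4 and 21 reads, 1.95), the small subunit processome protein Imp4 (16 and 75 reads, 1.79) and the export adaptor Phax (16 and 6 reads, -1.85).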

How the data were processed

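RNA from enChIP of Ba/F3 cells was sequenced from 2 libraries, 1 for each tagged protein, made with the Illumina TruSeq RNA v2 kit from 60 ng of RNA. In its standard form this kit selects polyadenylated RNA, which mature snoRNAs are not, and whether that step was used is not stated. The authors deposited read counts per Ensembl transcript, as raw values. RPM values were deposited beside them, and recomputing it from the counts and totals gave values within 4.8e-05. The submitters' processing notes name cutadapt and the build GRCm38 (mm10). The aligner, annotation release and treatment of reads with several matches are not given in the sources used here.

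Transcripts were matched by ID to GENCODE M1 (NCBIM37), which holds 45887 of 48876. This build is not the authors', and the deposited counts carry no coordinates. Ratios of RPM, without a pseudocount, and exact Clopper-Pearson 95% intervals were computed in Python 3.11.15 with scipy 1.17.1 and pandas 2.3.3. The procedure was run on simulated counts with counting error only. This checks the computation and cannot show how the intervals hold with PCR copies or shared reads. Differences of log2 ratios between RNAs used the conditional exact interval of the odds ratio. This interval takes the reads of the compared RNAs as separate and does not allow for shared reads. A transcript with 3 reads has 0.416 RPM at the depth of 3xFNLDD and 0.307 RPM at that of 3xFN-Tel-TAL. Copies were sought with BLAST 2.17.0+ at 90% identity over 50% of the length.

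The members, gene lists and alternatives were chosen with earlier results of these data known. Named were all transcripts of the member symbols, Snhg3, Rmrp, Snord14 transcripts, Snord22 and Snord13, the deepest mRNA of each protein list and the 3 highest and 3 lowest ratios with at least 100 reads over the lists, the highest and lowest snoRNA of each symbol class, and for each species the 3 other transcripts with at least 200 reads nearest in ratio. Snord17, Snord15a, Snord15b, Sfpi1, Gm26448, Gm22053, Rpsa, Gm17300, Rcc1, Tex14, Tmem107, Snapc2, Imp4 and Phax were named after their values were seen. Each mRNA was represented by its deepest transcript. Alternatives were TMM scaling (edgeR 4.0.16) and median-of-ratios scaling (DESeq2 1.42.0) in R 4.3.3, totals without the 11 transcripts with over 1% of the reads, 1 as a pseudocount, other read minimums, a ratio threshold of 2, the lower 95% bound in place of the ratio, and other sums over copies and host transcripts.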

Additional observations from a re-analysis of the deposited data

How the results depend on the processing

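Other scalings shifted every log2 ratio by the same amount, -0.37 with TMM, -0.26 with median-of-ratios and -0.32 with totals that leave out the 11 transcripts above 1% of either library, and so left differences between RNAs as they were. In that order, the log2 ratio of U3 became 1.72, 1.83 and 1.77, that of U8 0.74, 0.85 and 0.79 and that of U17 0.65, 0.76 and 0.71. The U8 interval was wide, from 0.22 to 1.29 with TMM. Without Rnu3b3 and Rnu3a the log2 ratio was 1.17 for U3. With Gm26448, an alternative chosen after seeing the data, the log2 ratio was 1.22 for U17 and the difference of U3 minus U17 was 0.87. U17 minus Snhg3 reversed to -0.054 against the deepest Snhg3 transcript alone, which shares an exon with Snora73a. The comparison with Snhg3 transcripts free of that overlap was also chosen after seeing the data.

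The 7275 transcripts above 1.4 became 4052 with TMM, 4413 with totals without transcripts above 1%, 3092 at a threshold of 2, 1631 by the lower bound, 11545 by the ratio of raw reads (chosen after seeing the data), 21740 at 1 read or more and 2469 at 100 reads or more. The 17 other snoRNAs above 1.4 became 11 at a threshold of 2, 9 by the lower bound, 54 at 1 read or more and 9 at 100 reads or more. The 17 mRNAs of the protein lists became 8 with TMM, 10 with totals without transcripts above 1%, 3 at a threshold of 2, 2 by the lower bound and 7 at 100 reads or more. Of all transcripts past 1.4 in either direction, the share above was 79.9% by library totals, 52.1% with TMM, 62.3% with median-of-ratios and 57% with totals without transcripts above 1%, and for the mRNA lists it was 73.9%, 32%, 46.2% and 40%. In all, 79 alternatives were computed, of which 41 moved a value by less than its counting interval or a count by less than 1.5 times.

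No paired analysis was possible because each protein has 1 library, and for the same reason no library could be left out. Gm23927 and Gm25203, with 7 and 11 reads in 3xFNLDD, are limited by depth. The Rnu3b3 value may include 3 identical copies, and Snora73a and Snora73b share sequence with Gm17300 on the other strand.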
